A study of Mus musculus with 12 samples.

Results

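The cells described here were IGRP206-214–reactive CD8 T cells of the spleen in which at least 1 Cx3cr1 transcript and 0 Ccr7 transcripts had been counted. Transcripts were counted by unique molecular identifier (UMI), a random tag that marks each captured RNA molecule once. The members were thus chosen by their raw Cx3cr1 and Ccr7 counts, and neither gene's level is a finding here. The gate was applied to cells with under 5% mitochondrial UMIs and between 200 and 2000 detected genes, and it held 791 of 3524 spleen cells in Round 1 (22.4%, exact 95% confidence interval 21.1–23.9) and 589 of 2430 in Round 2 (24.2%, 22.5–26.0). Together these were 1380 of 5954 spleen cells, and of 24117 cells kept in all 6 libraries of the series. They are called Cx3cr1+ cells below, and the remaining spleen cells of the same library are called the other spleen cells.

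The mice were female NOD/ShiLtJ, a strain that spontaneously develops autoimmune diabetes, and were prediabetic at 10 to 15 wk of age. In each of 2 independent rounds, organs from 10 mice were pooled, and the animal behind each cell is unknown. Splenocytes were enriched for CD8 T cells by magnetic negative selection, and single CD45.1+ Lin- CD8+ cells that bound a Kd tetramer loaded with NRP-V7, a mimotope of IGRP206-214, were sorted. Lin stood for CD4, B220 and CD11b. From islets of the same mice, CD8 T cells that bound the tetramer and cells that did not were both sorted, and gene expression and TCR libraries were made from every sort with a 10x 5′ kit. No mouse received a treatment, and every cell compared here carried the NOD genotype.

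CX3CR1 is the receptor for the membrane-bound chemokine fractalkine (CX3CL1). Among antigen-experienced CD8 T cells it marks the cells farthest along effector differentiation, which carry cytotoxic granules, circulate through blood and spleen and largely lack CCR7, the chemokine receptor that brings T cells into lymph nodes. IGRP is a protein of pancreatic beta cells and a major target of CD8 T cells in NOD mice.

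The TCRs of the Cx3cr1+ cells are shown first, because the same receptors recurred in clones whose share of Cx3cr1+ cells differed. A clone was a set of cells with the same pair of α and β chain CDR3 nucleotide sequences, the CDR3 being the junction of V, D and J segments that touches the peptide. Among the clones with at least 30 spleen cells, 9 clones fell into 3 groups whose CDR3s translated to the same amino acids. All 9 joined TRAV16N to TRAJ42 and used TRBV13-3. On GRCm38, Trav16n lies on chromosome 14 at chr14:53351028-53351621 and Traj42 at chr14:54175773-54175836, whereas Trbv13-3 lies on chromosome 6 at chr6:41130147-41130585, Trbj2-2 at chr6:41542957-41543007 and Trbj2-4 at chr6:41543362-41543410, all on the plus strand and all coding segments of the TCR loci. The CDR3s are given 5′ to 3′, with bases that differ from the first clone of that receptor in capitals.

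Among the clones of at least 30 cells, the first receptor, with TRBJ2-4, was carried by 4. These combined both forms of the α CDR3 with both forms of the β CDR3, and these forms were:
Receptor 1, α, first form: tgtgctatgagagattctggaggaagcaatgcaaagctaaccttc
Receptor 1, α, other form: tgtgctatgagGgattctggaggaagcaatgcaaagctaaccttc
Receptor 1, β, first form: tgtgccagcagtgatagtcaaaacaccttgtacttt
Receptor 1, β, other form: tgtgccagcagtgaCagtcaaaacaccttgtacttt
In Round 1, the clone with both first forms had 88 of 232 spleen cells in the Cx3cr1+ gate (37.9%, 31.7–44.5), and the clone with both other forms had 41 of 218 (18.8%, 13.8–24.6). In Round 2, the clone with the first α and other β form had 13 of 50 cells in the gate (26.0%, 14.6–40.3), and the clone with the other α and first β form had 10 of 35 (28.6%, 14.6–46.3). Thus, 2 clones of Round 1 with the same receptor protein had intervals that did not overlap, while those of the Round 2 pair overlapped almost fully. Below 30 cells, a Round 1 clone with the first α and other β form had 9 of 27 cells in the gate (33.3%, 16.5–54.0). Another Round 1 clone, with the other α form and a further β form for the same amino acids, had 7 of 20 (35.0%, 15.4–59.2). The intervals of these smaller Round 1 clones each overlapped both of the Round 1 intervals above. A Round 2 clone with a further α form and the other β form had 6 of 18 (33.3%, 13.3–59.0).

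The second receptor, with TRBJ2-2, and the third, with TRBJ2-4, carried the same pair of α forms as the first, and their β CDR3s were:
Receptor 2, β: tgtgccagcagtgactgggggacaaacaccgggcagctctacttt
Receptor 3, β, first form: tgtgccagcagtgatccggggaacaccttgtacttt
Receptor 3, β, other form: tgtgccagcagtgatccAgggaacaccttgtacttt
Receptor 2 was found in the largest clone of Round 2, with 98 of 323 cells in the gate (30.3%, 25.4–35.7), and in a clone of 31 cells with the other α form, with 5 in the gate (16.1%, 5.45–33.7). Receptor 3 was found in a Round 1 clone with both first forms, which had 2 of 38 cells in the gate (5.26%, 0.644–17.7). In Round 2, a clone with the other α and other β form had 5 of 60 cells in the gate (8.33%, 2.76–18.4), and a clone with the first α and other β form had 15 of 46 (32.6%, 19.5–48.0). The last 2 clones came from the same library and differed by 1 silent base of the α chain, and their intervals did not overlap. Below 30 cells, further Round 2 clones with the first α form encoded the same CDR3 amino acids by other β forms. A clone with TRBJ2-4 had 0 of 14 cells in the gate (0%, 0–23.2), an interval that overlapped both of these. Clones with TRBJ1-3 had 7 of 17 (41.2%, 18.4–67.1) and 4 of 15 (26.7%, 7.79–55.1). These intervals cover counting error only, there was no replicate of a clone within a round, and whether each clone came from 1 mouse or several was not tested.

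The clones of at least 30 cells with the highest share of Cx3cr1+ cells had other receptors, and their β CDR3s were:
Highest in Round 1, TRBJ2-2: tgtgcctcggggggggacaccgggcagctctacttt
Highest in Round 2, TRBJ2-7: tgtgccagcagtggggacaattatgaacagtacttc
The first had 31 of 56 cells in the gate (55.4%, 41.5–68.7) and the other had 14 of 30 (46.7%, 28.3–65.7). Both used TRAV16N, TRAJ42 and TRBV13-3, as did the receptor 3 clones with the lowest shares.

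Over all clones with at least 10 spleen cells, 21 in Round 1 and 25 in Round 2, the share of cells in the Cx3cr1+ gate ran from 0% to 70.0% with a median of 33.3% in Round 1, and from 0% to 63.6% with a median of 26.7% in Round 2. Every one of these clones used TRAV16N. The largest clone of Round 1, which used TRAJ49 (chr14:54168686-54168747) and TRBJ2-4, had 59 of 265 cells in the gate (22.3%). In each round, 1 of these clones had no Cx3cr1+ cell. All of these clones were also found in islets, except 1 clone of Round 1.

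**Figure D1:**
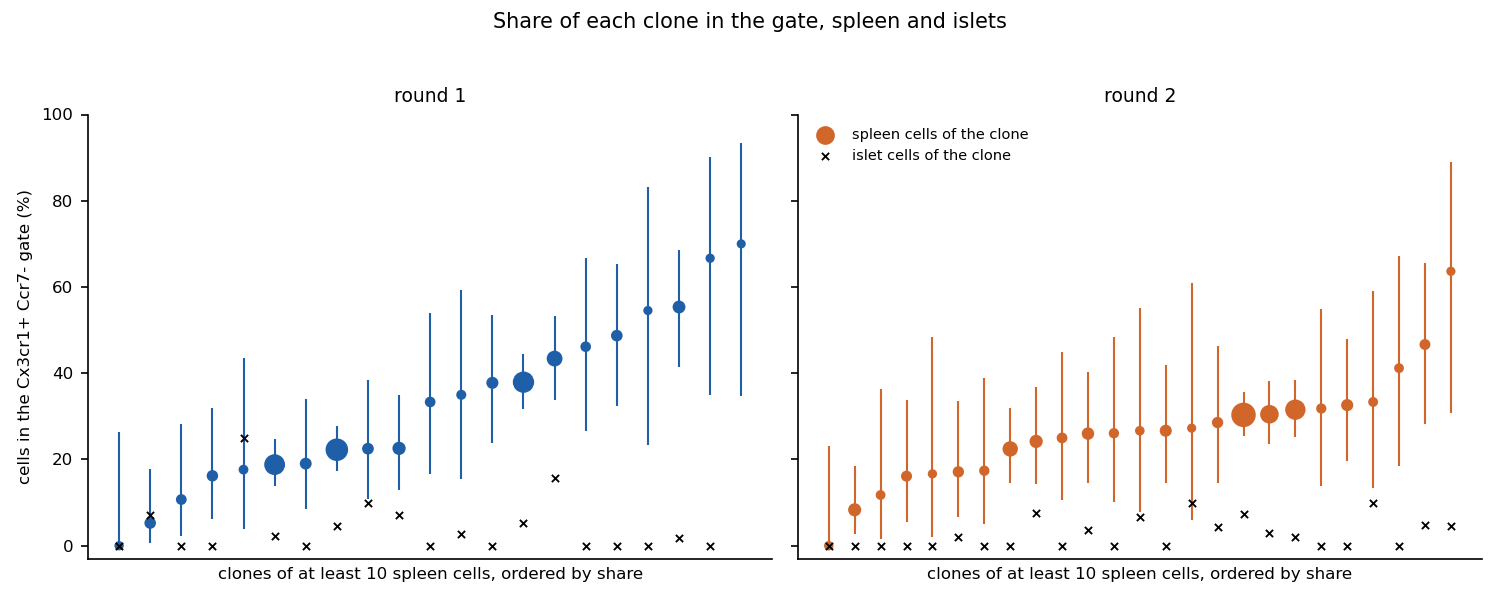
Share of cells in the Cx3cr1+ Ccr7- gate (%, y axis) for each clone with at least 10 spleen cells, ordered by share within Round 1 (21 clones) and Round 2 (25 clones). Dots are spleen cells with exact 95% intervals, dot area grows with clone size, and crosses are islet cells of the same clone. Spleen shares run from 0% up to 70.0% and 63.6%, and the islet cells of these clones are in the gate in 3.93% (Round 1) and 3.79% (Round 2) of cases.

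Nearly every Cx3cr1+ cell was assigned TRAV16N, the α chain V gene that the authors report for most tetramer-positive cells of these mice. They caution that the Cell Ranger software separates TRAV16 variants only in part, so other variants may be among these cells. Of the Cx3cr1+ cells with exactly 1 productive α and 1 productive β chain, 412 of 414 (99.5%, 98.3–99.9) in Round 1 and 398 of 400 (99.5%) in Round 2 used TRAV16N. Among the other spleen cells the share was 83.0% and 87.9%, among Ccr7- cells without a Cx3cr1 UMI it was 92.3% and 94.5%, and among Ccr7+ cells without Cx3cr1 it was 53.0% and 68.5%. The Cx3cr1+ cells were above each of these classes in both libraries. TRBV13-3 was used by 87.2% and 88.8% of Cx3cr1+ cells against 67.6% and 76.3% of the other spleen cells. TRAV16N joined to TRAJ42 was used by 82.6% and 96.3%, against 62.8% and 84.1%.

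Cx3cr1+ cells also belonged to expanded clones more often than the other spleen cells. A clone of at least 2 cells accounted for 99.8% and 99.3% of paired Cx3cr1+ cells and for 79.9% and 87.5% of the other spleen cells. A clone found in the islets of the same round accounted for 96.1% and 98.3% of Cx3cr1+ cells, against 78.4% and 83.0%. Averaged over the 2 libraries, the difference was 15.8 percentage points for expanded clones and 16.5 for clones in islets. Among TRAV16N cells alone these differences were 3.69 and 3.30 points. Against TRAV16N cells with neither Cx3cr1 nor Ccr7 UMIs, the difference for expanded clones was 2.10 points in Round 1 and 0.34 in Round 2. For clones in islets it was -0.36 and 1.98 points, so its sign changed between libraries. With 2 libraries, an exact sign-flip test of a share cannot go below p = 0.5, so the shares are given as values.

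Nearly all clones of the Cx3cr1+ cells also held other spleen cells. The Cx3cr1+ cells came from 30 clones in Round 1 and 34 in Round 2. Of these clones, 29 and 31 also held other spleen cells, and they took in 413 of 414 and 397 of 400 Cx3cr1+ cells. A cell without a Cx3cr1 UMI may still express the gene. How much of this sharing follows from missed detection was not tested. The 5 largest clones made up 64.0% and 62.5% of the Cx3cr1+ cells against 51.0% and 48.2% of the other spleen cells. By β chain J gene, 38.8% and 28.1% of TRBJ2-2 cells were in the gate, 27.1% and 23.5% of TRBJ2-4 cells, and 22.6% and 25.4% of TRBJ2-7 cells. Over all paired cells TRBJ2-2 was highest in both libraries, but this rested on single clones. All 31 TRBJ2-2 cells in the gate in Round 1 belonged to 1 clone (31 of 56 cells), and 98 of 103 in Round 2 belonged to the largest clone. Clones of at least 5 cells were then weighted equally. In Round 1 the shares were 55.4% for TRBJ2-2 (1 clone), 29.1% for TRBJ2-4 (10 clones) and 27.3% for TRBJ2-7 (10 clones). In Round 2 they were 23.2% for TRBJ2-2 (2 clones), 18.7% for TRBJ2-4 (10 clones) and 26.7% for TRBJ2-7 (14 clones). TRBJ2-2 thus stayed highest in Round 1, on 1 clone, and was no longer highest in Round 2. Put the other way, TRBJ2-2 was used by 7.49% and 25.8% of Cx3cr1+ cells and by 3.93% and 20.7% of the other spleen cells, so that the step between rounds was larger than the step between classes.

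**Figure D2:**
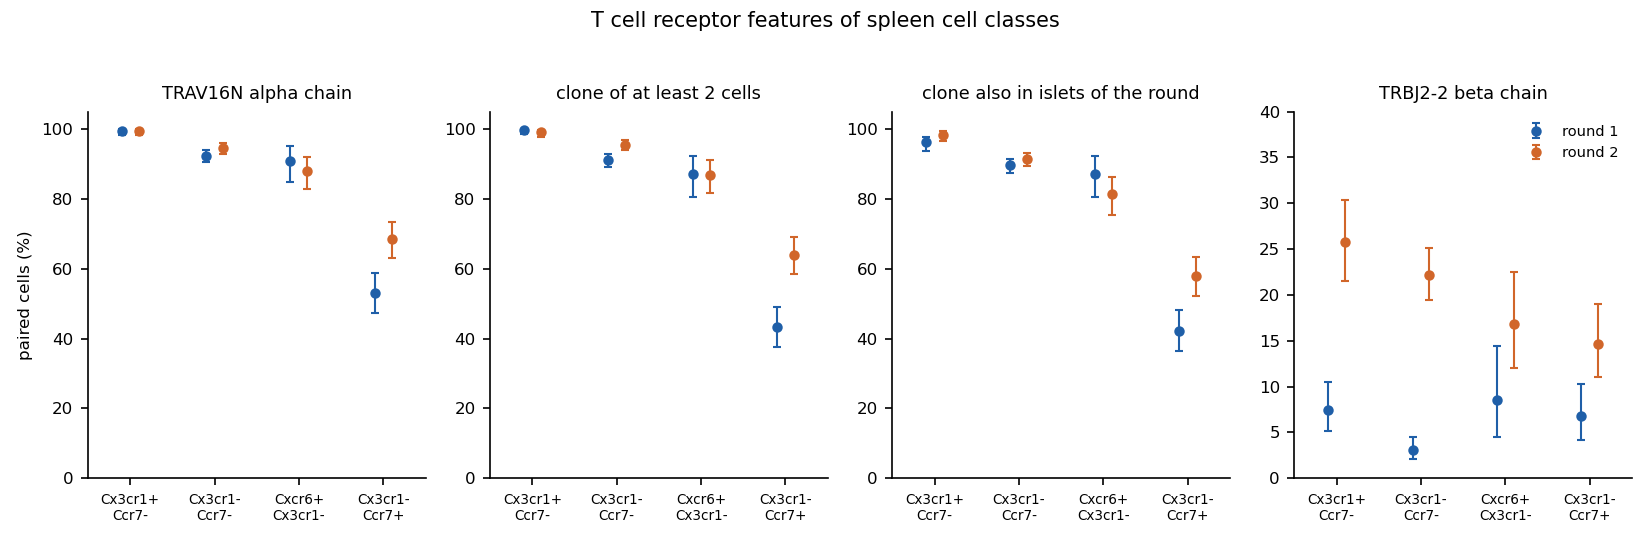
Percent of paired spleen cells that use TRAV16N, belong to a clone of at least 2 cells, belong to a clone found in the islets of the same round, or use TRBJ2-2 (y axes), in 4 spleen cell classes, with 1 dot per round and exact 95% intervals. Cx3cr1+ Ccr7- cells reach 99.5% for TRAV16N in both rounds, whereas TRBJ2-2 is at 7.49% in Round 1 and 25.8% in Round 2.

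The label was set beside genes the gate had not used. These were chosen with earlier results of these data known, so their levels describe the label and are no independent check. Klrg1 (an inhibitory lectin receptor of terminal effectors), Gzmb (granzyme B) and S1pr5 (a sphingosine-1-phosphate receptor of circulating effector and NK cells) were each higher in Cx3cr1+ cells in both libraries. The CD8 coreceptor genes were counted at similar or higher levels than in the other spleen cells. Levels are given as CPM, the UMIs of a gene summed over a class and scaled to the total UMIs of that class in that library. Cd8a was at 546 and 684 CPM in Cx3cr1+ cells against 535 and 656 CPM, and Cd8b1 was at 1458 and 1390 CPM against 1033 and 1048 CPM. Ncr1, Cd4, Trdc, Cd79a, Ms4a1, Lyz2 and Csf1r, which define NK, CD4, γδ, B and myeloid cells, had 0 UMIs in the Cx3cr1+ cells of both libraries. Of 18 myeloid markers, 4 and 6 had a UMI, with a summed level of 281 and 272 CPM against 218 and 268 CPM, and Cd68 was the only one that passed the test used below (log2 difference 0.67). Of 8 NK markers, 2 and 3 had a UMI, summing to 5.53 and 8.35 CPM against 1.97 and 2.06. Of 8 CD4 and γδ markers, 4 and 4 had one (43.8 and 40.5 against 35.6 and 32.9 CPM), and of 8 B cell markers, 3 and 3 (80.5 and 89.3 against 139 and 132 CPM). Of 8 erythroid markers, 0 and 2 had one. The part of such transcripts in the results was not tested.

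Cx3cr1+ cells were no deeper than the rest. Their median was 2369 and 2542 UMIs per cell, against 2683 and 2864 in the other spleen cells, and 1988429 and 1556006 UMIs were summed over them in Rounds 1 and 2. Ribosomal protein genes took a median 20.4% and 16.5% of their UMIs against 28.0% and 22.2%, a gap whose part in the results was not tested. Of the 791 and 589 cells, 27 and 11 shared a barcode with a cell of another library. In Round 1, 18 Cx3cr1+ cells (2.28%) had more than 1 productive β chain.

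Most Cx3cr1+ cells sat at the lowest level the gate allows. A single Cx3cr1 UMI was counted in 535 (67.6%) and 354 (60.1%) of them, 2 UMIs in 168 (21.2%) and 142 (24.1%), and 3 or more in 88 (11.1%) and 93 (15.8%), with a highest count of 6 in Round 1 and 9 in Round 2. The levels of other genes followed the Cx3cr1 count. In Round 1, Gzma (granzyme A) was at 197 CPM in Ccr7- cells with 0 Cx3cr1 UMIs, 514 with 1, 918 with 2 and 1619 with 3 or more, and in Round 2 it was at 162, 554, 1099 and 2294 CPM. Il7r, the IL-7 receptor chain of naive and memory cells, went the other way, from 389 to 184, 100 and 120 CPM in Round 1 and from 444 to 263, 188 and 147 CPM in Round 2. Cells with 1 UMI thus lay between those with 0 and those with 2 for both genes in both libraries. Cells just outside the gate, with Cx3cr1 and Ccr7 both counted, numbered 52 and 76, and had 148 and 50.2 CPM of Gzma and 264 and 475 CPM of Il7r. These levels describe the threshold and were not tested.

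**Figure D3:**
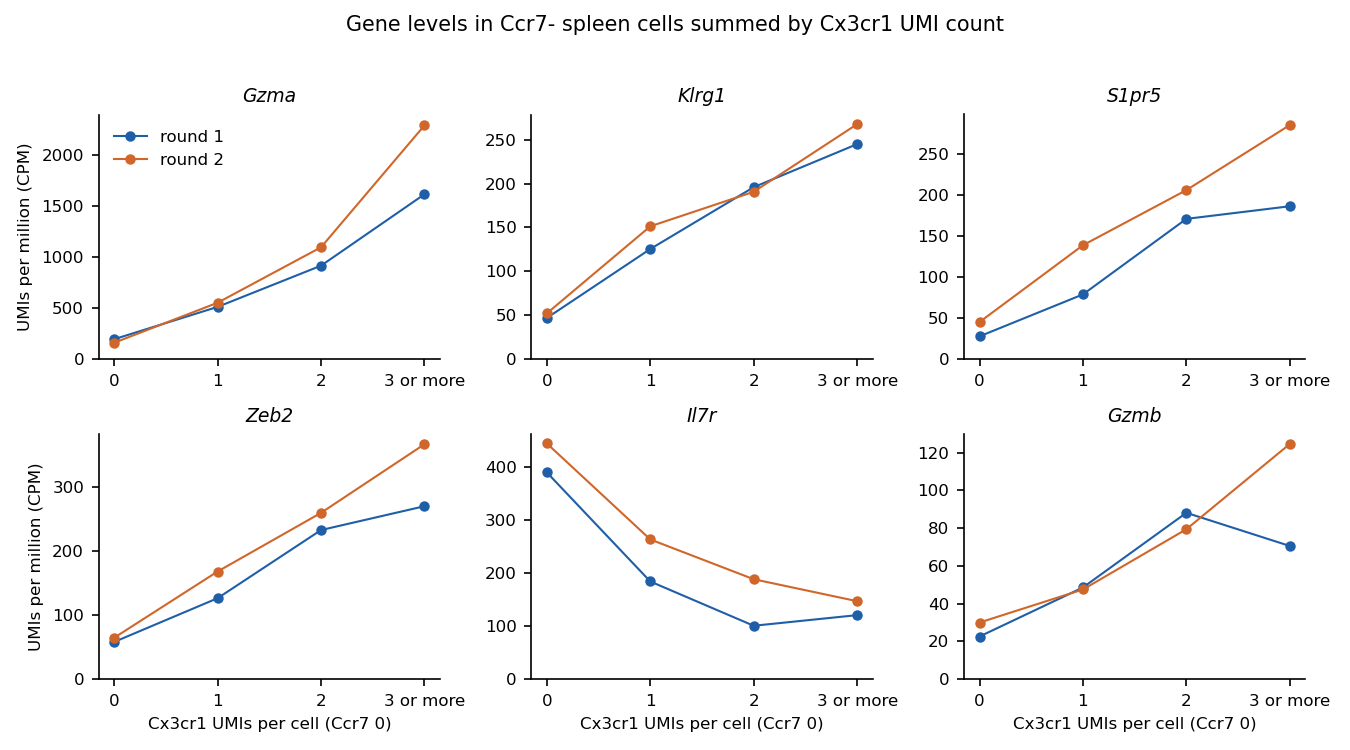
Level (CPM, y axis) of Gzma, Klrg1, S1pr5, Zeb2, Il7r and Gzmb in spleen Ccr7- cells with 0, 1, 2 or 3 or more Cx3cr1 UMIs (x axis), 1 line per round. Gzma climbs from 197 to 1619 CPM in Round 1 and from 162 to 2294 CPM in Round 2, and Il7r goes from 389 to 120 and from 444 to 147 CPM.

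The first comparison set Cx3cr1+ cells against all other spleen cells of the same library. Cytotoxic genes, S1pr5 and effector transcription factors were higher in Cx3cr1+ cells, and genes of memory and quiescence were lower. Of 9798 genes tested, 1002 passed at an adjusted p under 0.05, 480 higher (4.9% of genes tested) and 522 lower (5.33%), 10.2% in all. Sums over the cells of each class and library were tested with edgeR's quasi-likelihood test with the library as a block and Benjamini-Hochberg adjustment, and every adjusted p below comes from it. With the block, the p-values measure how far the class difference varied between these 2 libraries, with that spread estimated largely over all genes together. Very small p-values thus do not reflect spread between mice or many replicates, and all classes of a library came from 1 suspension. The median log2 difference of all genes was 0.00. Without the library as a block, edgeR passed 0 genes (463 had an unadjusted p under 0.05), and DESeq2 with the block passed 242.

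Among the genes of killing, Gzma led. It was at 731 and 992 CPM in Cx3cr1+ cells of Rounds 1 and 2 and at 143 and 111 CPM in the other spleen cells (log2 difference 2.60, SE 0.07, adjusted p = 6.83e-253). Gzmb was at 59.4 and 68.8 CPM against 16.8 and 21.3 (1.63, SE 0.15, adjusted p = 2.77e-25). For both granzymes, the lower Cx3cr1+ library lay above the higher library of the other cells. Fasl, the ligand of the death receptor Fas, was at 169 and 152 CPM against 62.6 and 63.9 (log2 difference 1.22). Smaller differences that passed were those of Prf1, which encodes the pore-forming perforin (139 and 176 against 85.2 and 120 CPM, 0.51), Gzmk (0.65) and the granule protein gene Nkg7 (0.58). In all, 8 of 17 tested genes of the cytotoxic list were higher and 0 were lower, with a median log2 difference of 0.40.

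The trafficking list split in both directions, with 10 genes higher and 6 lower of 23 tested. S1pr5 was at 111 and 181 CPM against 21.4 and 34.2 CPM (log2 difference 2.27, SE 0.11, adjusted p = 2.41e-96), and the classes did not overlap. S1pr1, the related receptor through which T cells leave lymphoid organs, was at 188 and 211 against 175 and 187 CPM (0.01, adjusted p = 0.973). Its activator Klf2 was higher by 0.37, at 988 and 1720 against 681 and 1257 CPM, and here the 2 rounds lay farther apart than the 2 classes. Higher as well were Itgb2, the β chain of LFA-1 (565 and 875 against 324 and 549 CPM, 0.61), and the inflammatory chemokine receptors Ccr2 (1.03) and Cxcr6 (0.74). Itgae, the CD103 integrin of epithelial resident cells, was lower by 2.73 on the log2 scale (1.51 and 1.93 against 9.58 and 11.6 CPM). Ccr9, a gut homing receptor, had 0 UMIs in Cx3cr1+ cells against 120 in the other spleen cells, in which it was at least 10.9-fold higher, taking 3 UMIs over the class as the limit.

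Of 15 transcription factors of effector cells, 7 were higher and 0 lower, with a median of 0.32. Zeb2, a repressor needed for terminal effector differentiation, was at 166 and 225 CPM against 45.3 and 52.0 (log2 difference 1.86, adjusted p = 1.06e-92). Tbx21, which encodes T-bet, was at 125 and 208 against 56.8 and 114 CPM (0.86). Bhlhe40 (0.96), Prdm1 (0.86) and Id2 (0.53) were also higher. Prdm1 was uneven between libraries, at 41.3 against 14.4 CPM in Round 1 and 31.5 against 24.3 CPM in Round 2, a log2 ratio of 1.45 in Round 1 alone and 0.36 in Round 2 alone. Of 22 memory and quiescence genes, 16 were lower and 1, Eomes, was higher (0.22, adjusted p = 0.0325), with a median of -0.64. Il7r was at 159 and 224 CPM against 430 and 486 (-1.40, SE 0.08, adjusted p = 1.44e-63). Tcf7, which encodes TCF-1, was at 161 and 259 against 258 and 373 CPM (-0.72), so the classes overlapped between rounds although each library showed the same direction. Id3 was at 31.2 and 27.0 against 82.8 and 97.6 CPM (-1.73), Bcl2 was lower by 0.50, and Dapl1 was at 3.52 and 0.643 against 90.6 and 92.1 CPM (-5.45). Igfbp4 had 3 UMIs in Cx3cr1+ cells and 522 in the other cells, a level 47.5 times higher in the latter (counting interval 16.2–231).

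NK-type receptors were higher in 9 of 15 cases and lower in 1, with a median of 0.73. Klrg1 was at 154 and 181 CPM against 36.8 and 41.1 (log2 difference 1.97, SE 0.09, adjusted p = 3.19e-92). The inhibitory receptor gene Klrc1, which encodes NKG2A, was at 755 and 896 against 348 and 445 CPM (0.94), and Klre1 was higher by 0.85. Members of these lectin families resemble each other in sequence, so that the split of reads between them is uncertain. Of the cytokine and chemokine genes, Ccl5 (44448 and 40605 against 27003 and 25231 CPM, 0.58), Ccl4 (0.59) and Ccl3 (0.50) were higher. Xcl1, a chemokine for cross-presenting dendritic cells, was at 21.1 and 21.9 against 75.3 and 78.9 CPM (-1.97), and Lta (-1.68), Ltb (-0.57) and Tnf (-0.48) were lower. Il18rap, a chain of the IL-18 receptor, was at 138 and 154 against 55.5 and 72.9 CPM (1.07).

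Genes of the actin cytoskeleton and the S100, annexin and galectin families were higher in 17 of 20 cases and lower in 1, with a median of 0.52. Lgals3 was at 254 and 273 CPM against 89.8 and 103 (1.33), Lgals1 at 2486 and 2761 against 1071 and 1192 (1.09) and S100a4 at 399 and 411 against 160 and 198 (1.06). Coinhibitory genes showed no such shift, with 2 of 16 higher, 1 lower and a median of 0.06. Pdcd1, which encodes PD-1, was at 50.8 and 57.9 against 39.5 and 45.6 CPM (0.23, adjusted p = 0.315), Lag3 differed by -0.03 and Tox by 0.18, and none of these passed. Entpd1, which encodes the ectoenzyme CD39, was higher (40.3 and 36.0 against 12.6 and 17.6 CPM, 1.25). Ctla4 was lower (-0.63, adjusted p = 0.0247), but at 12.6 against 24.2 CPM in Round 1 and 23.8 against 25.4 CPM in Round 2 the log2 ratio was -0.89 in the one library and -0.09 in the other. Of 14 cell cycle genes, 3 were higher and 1 lower, and Mki67 was at 9.06 and 19.9 against 6.30 and 15.3 CPM (0.32, adjusted p = 0.542).

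Outside the lists, the largest differences upward among genes over 20 CPM included Dixdc1 (1.77), Rap1gap2 (1.45), Prr5l (1.33), Wdr95 (1.33) and Apobec2 (1.26). The largest downward included Ramp1 (-4.84), Tdrp (-4.38) and Rgs10, a regulator of G protein signalling, which was at 6.54 and 7.72 CPM against 77.1 and 63.7 (-3.46). The IL-6 receptor genes Il6ra (-3.09) and Il6st (-2.40) and the cytoskeletal gene Actn1 (-2.83) were lower as well. Plac8 had 3 UMIs in Cx3cr1+ cells against 276, a level 25.1 times higher in the other cells (8.51–123). The B cell genes Ighm (22.6 and 19.3 against 77.4 and 60.0 CPM, -1.86) and Cd79b (-0.92) were lower in Cx3cr1+ cells, and their source was not tested.

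**Figure D4:**
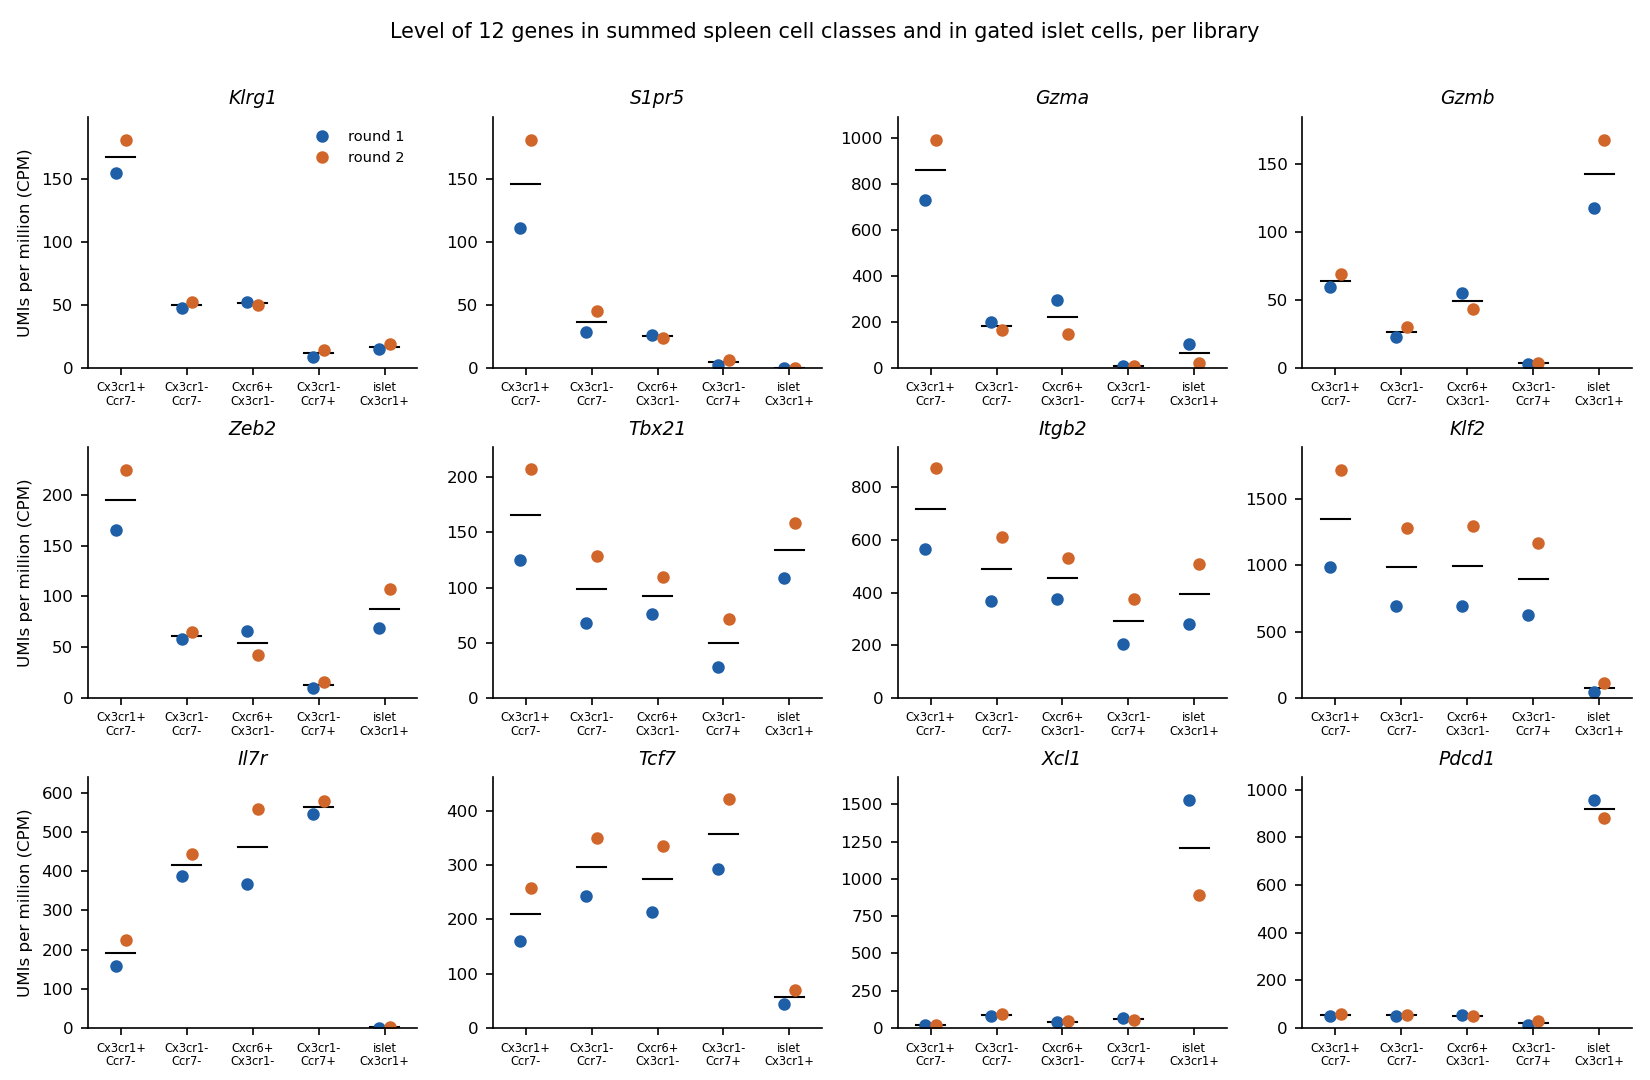
Level (CPM, y axes) of 12 genes in Cx3cr1+ Ccr7-, Cx3cr1- Ccr7-, Cxcr6+ Cx3cr1- and Cx3cr1- Ccr7+ spleen cells and in islet tetramer-positive Cx3cr1+ Ccr7- cells. Dots are Round 1 (blue) and Round 2 (orange) and bars are their mean. Spleen Cx3cr1+ cells have the highest Gzma (731 and 992 CPM), Klrg1 (154 and 181 CPM) and S1pr5 (111 and 181 CPM) of the 5 classes.

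Part of the contrast above followed from the gate, since every other spleen cell with Ccr7 counted stood on the other side. The second comparison therefore left these out and set Cx3cr1+ cells against the 2081 and 1313 spleen cells with neither Cx3cr1 nor Ccr7 UMIs. The Cx3cr1+ sums are the same in both comparisons, which are thus not independent. Of 9495 genes, 610 passed (6.42%), 282 higher (2.97%) and 328 lower (3.45%). Ribosomal protein genes took 26.5% and 20.8% of the UMIs of the reference cells. Without the block 0 genes passed with edgeR (252 had an unadjusted p under 0.05), and DESeq2 passed 157.

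The same leading genes stood out with smaller differences. Gzma was at 197 and 162 CPM in the reference cells (log2 difference 2.14), S1pr5 at 28.0 and 45.4 (1.91), Klrg1 at 47.0 and 52.2 (1.66), Zeb2 at 58.0 and 64.5 (1.56) and Gzmb at 22.6 and 30.0 CPM (1.21). For all 5 genes, both Cx3cr1+ libraries lay above both reference libraries. Lgals3 (1.07), Fasl (0.89), Tbx21 (0.69) and Prf1 (0.37) were also higher, and so was Dixdc1 (1.60). Of 17 cytotoxic genes 7 were higher and 0 lower (median 0.24), and of 22 memory genes 15 were lower and 1, Klf3, higher (median -0.37).

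The memory side kept its direction without the Ccr7+ cells. Il7r was at 389 and 444 CPM in the reference cells (-1.22), Dapl1 at 46.8 and 32.5 (-4.24), Id3 at 81.8 and 96.8 (-1.68) and Tcf7 at 244 and 350 CPM (-0.60). Xcl1 was at 79.8 and 94.8 CPM (-2.09). Socs3, a feedback inhibitor of cytokine signalling, was at 14.1 and 24.4 CPM in Cx3cr1+ cells against 39.7 and 42.5 (-1.23), with a log2 ratio of -1.43 in Round 1 alone and -0.77 in Round 2 alone. Pdcd1 differed by -0.03 (adjusted p = 0.948).

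**Figure D5:**
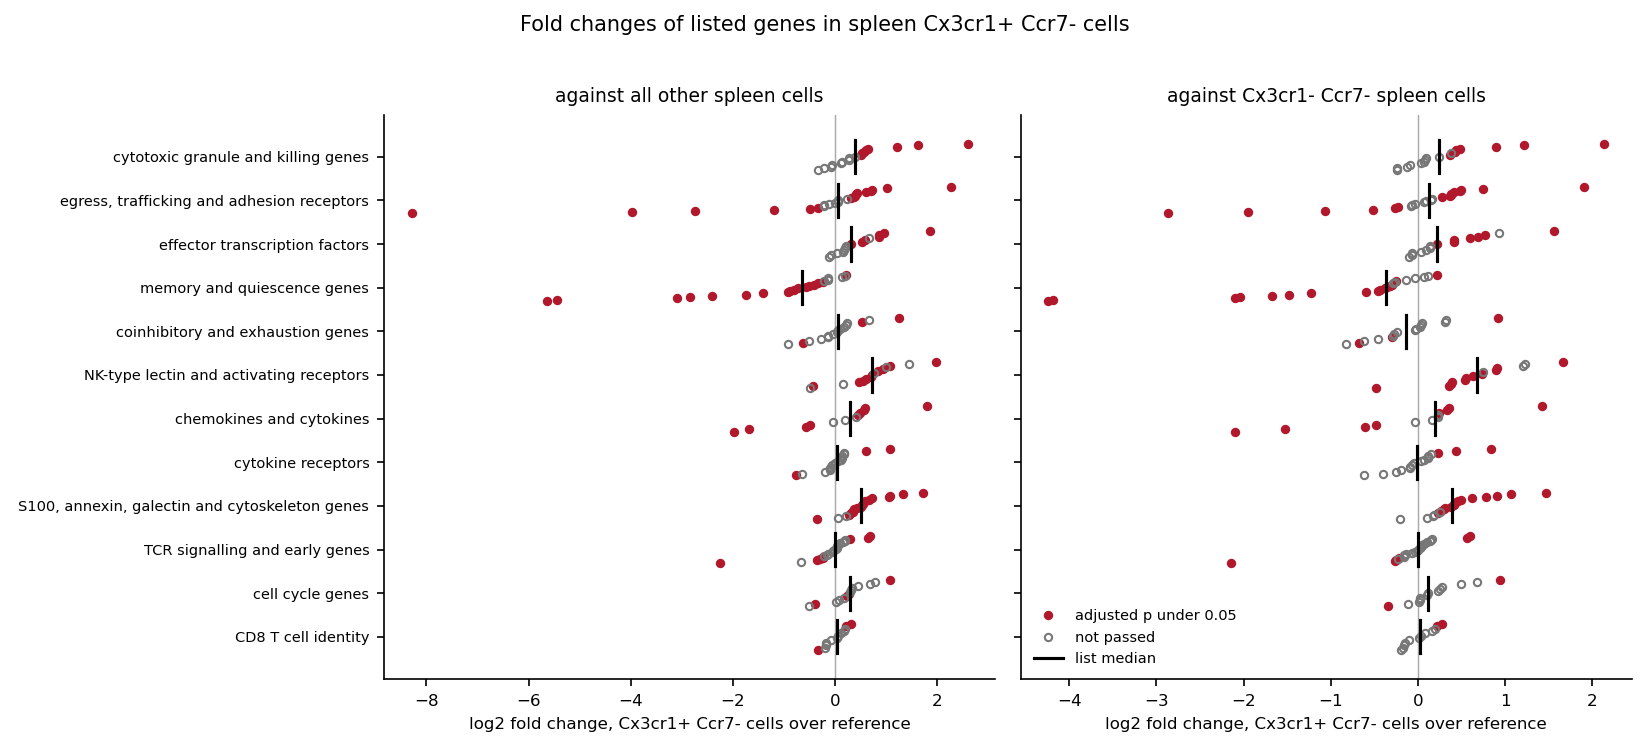
Log2 difference (x axis) of each tested gene of 12 gene lists (y axis) between Cx3cr1+ cells and all other spleen cells (left) or Cx3cr1- Ccr7- spleen cells (right). Red dots passed at an adjusted p under 0.05, open grey dots did not, and black bars are list medians. The leftmost point of the left panel is Ccr9, with 0 UMIs in Cx3cr1+ cells, whose fitted value is no bound. The memory list has medians of -0.64 (left) and -0.37 (right), and the NK-type receptor list 0.73 and 0.68.

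CXCR6 is a chemokine receptor of activated and tissue-directed CD8 T cells, so the third comparison set Cx3cr1+ cells against the 271 and 295 spleen cells that had Cxcr6 but no Cx3cr1 counted. Those cells were chosen whatever their Ccr7 count, and the Cx3cr1+ sums were again the same. Of 8187 genes, 367 passed (4.48%), 129 higher (1.58%) and 238 lower (2.91%). Without the block 0 passed with edgeR (217 had an unadjusted p under 0.05), and DESeq2 passed 118.

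S1pr5 showed the largest difference upward here. It was at 26.3 and 23.8 CPM in the Cxcr6+ cells (log2 difference 2.48, SE 0.19, adjusted p = 3.65e-36). Gzma was at 297 and 144 CPM (1.90), Zeb2 at 65.7 and 42.3 (1.79) and Klrg1 at 52.5 and 49.8 CPM (1.63), and for each of these genes both Cx3cr1+ libraries lay above both Cxcr6+ libraries. Gzmb did not pass, at 59.4 and 68.8 against 55.2 and 43.3 CPM (0.29, SE 0.19, adjusted p = 0.551). Ccr2 (0.22), S100a4 (0.03), Id2 (-0.14) and Pdcd1 (-0.02) did not pass either. Tbx21 (0.75), Itgb2 (0.56), Klf2 (0.36), Il18rap (0.90), Lgals1 (0.62), Dixdc1 (2.14), Apobec2 (1.66) and Prr5l (1.70) were higher.

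Lower than in Cxcr6+ cells were Il7r (366 and 558 CPM in those cells, -1.36), Dapl1 (70.9 and 135, -5.50), Itgae (9.19 and 21.7, -3.15) and Xcl1 (38.1 and 43.3, -1.01). The inhibitory receptor gene Cd160 was at 20.1 and 21.2 CPM against 42.0 and 61.8 (-1.41), Ctla4 was at 12.6 and 23.8 against 39.4 and 28.2 CPM (-0.99), with a log2 ratio of -1.57 in Round 1 alone and -0.23 in Round 2 alone, and the chemokine receptor gene Cxcr3 was lower by 0.33. Of 17 cytotoxic genes 6 were higher and 0 lower (median 0.14), of 15 transcription factors 3 and 0 (0.26), and of 22 memory genes 2 and 13 (-0.48).

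Within the Cx3cr1+ cells, expression was uneven. After each cell was thinned to 1000 UMIs, which 782 and 586 of the cells could supply, Klrg1 was detected in 14.3% and 16.9% of Cx3cr1+ cells (26.4% and 30.1% before thinning). It was detected in 4.46% and 5.23% of Cx3cr1- Ccr7- cells and in 1.51% and 1.55% of Ccr7+ cells, the latter taken as the background of cells that should lack it. Gzma was detected in 17.5% and 25.1% against 7.13% and 5.39% and a background of 0.334% and 1.33%, and S1pr5 in 10.5% and 15.0% against 3.27% and 4.20% (background 0.167% and 1.11%). Il7r was detected in 9.85% and 14.2% of Cx3cr1+ cells, 24.0% and 26.2% of Cx3cr1- Ccr7- cells and 37.5% and 37.5% of Ccr7+ cells. Any of Klrg1, Gzmb, Gzma and S1pr5 was detected in 33.1% and 41.1% of the thinned Cx3cr1+ cells. At this depth a cell without a UMI cannot be told from a cell that does not express the gene.

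Each effector gene was detected more often in Cx3cr1+ cells that held another. Gzma was detected in 34.8% and 44.4% of the thinned Cx3cr1+ cells that had Klrg1 and in 14.6% and 21.1% of those that did not. S1pr5 was detected in 29.9% and 29.3% of those with Gzma and in 6.36% and 10.3% of those without. Il7r was less often detected with Gzma (3.65% and 7.48%) than without it (11.2% and 16.4%). Both libraries showed the same direction for each pair, and these shares were not tested.

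The gate held a smaller share of tetramer-positive cells in islets than in spleen. Of islet Ccr7- cells, 40 of 1009 (3.96%, 2.85–5.36) and 48 of 1220 (3.93%, 2.91–5.18) had a Cx3cr1 UMI, against 6.15% (3.22–10.5) and 4.76% (2.85–7.42) of islet Ccr7+ cells, whose share was thus no lower. Among tetramer-negative islet cells, 0.823% and 0.905% of Ccr7+ cells had one. In spleen the corresponding shares were 27.5% (25.9–29.2) and 31.0% (28.9–33.1) of Ccr7- cells against 7.98% (6.01–10.3) and 14.4% (11.5–17.7) of Ccr7+ cells. The islet Ccr7+ cells were also deeper, with a median of 5530 and 5342 UMIs among those without Cx3cr1, against 3555 and 3772.5 in Ccr7- cells without Cx3cr1. In spleen these medians were 3326 and 3603.5 against 2513 and 2626. How much of the islet share is background was not tested. The islet cells in the gate had a median of 4270.5 and 6438 UMIs, above that of the spleen Cx3cr1+ cells. The same clones also differed between organs. Of the islet cells of the clones with at least 10 spleen cells, 24 of 611 (3.93%) and 40 of 1055 (3.79%) were in the gate, against 29.4% and 27.6% of their spleen cells. The islet share was the lower one in 17 clones of Round 1 and 24 of Round 2, and the higher one in 2 and 0.

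Against these 40 and 48 islet cells, spleen Cx3cr1+ cells were lower in most coinhibitory and cell cycle genes, and the trafficking and memory genes that passed went both ways. Sums were tested with edgeR without a block. Of 7638 genes, 507 passed (6.64%), 214 higher (2.8%) and 293 lower (3.84%), and with the round as a block 1747 passed, all 507 among them with the same sign. Leaving out the islet library of Round 1 or Round 2 left 59 or 66 genes, and a gate on thinned counts left 5. The thinned gate held only 14 and 18 islet cells, under the minimum of 20 cells per sum set for this comparison. The difference between organs and the difference between Cx3cr1+ cells and others cannot be told apart in this comparison.

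S1pr5 had 503 UMIs in spleen Cx3cr1+ cells and 0 in the islet cells, so that it was at least 25.1-fold higher in spleen. Il7r had 665 UMIs against 1, a ratio of 99.5 (counting interval 17.8–3938). Klf2 was at 988 and 1720 CPM against 44.3 and 110 CPM (log2 difference 4.00, adjusted p = 0.00343), S1pr1 at 188 and 211 against 0 and 15.3 (4.36), Klf3 at 342 and 397 against 19.7 and 21.4 (4.08), Klrg1 at 154 and 181 against 14.8 and 18.3 (3.24) and Gzma at 731 and 992 against 103 and 21.4 CPM (3.79, adjusted p = 0.0126). The libraries of the 2 organs did not overlap for any of these genes. Of 21 trafficking genes 7 were higher and 2 lower (median 0.78), and of 18 memory genes 7 were higher and 4 lower (median 1.00), the latter including Il2rb, a chain of the IL-2 and IL-15 receptors (-1.24). Bcl2 (2.67), Il18rap (2.13), Itga4 (1.76), Tcf7 (1.74), Slamf6 (1.51) and Ccr2 (1.20) were higher in spleen as well.

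Of 15 coinhibitory genes 12 were lower in spleen Cx3cr1+ cells and 0 higher, with a median of -2.27 beside 0.04 over all genes. Pdcd1 was at 50.8 and 57.9 CPM against 955 and 880 (-4.16, adjusted p = 0.000597), Lag3 at 32.2 and 32.8 against 507 and 523 (-4.05), Tigit at 154 and 125 against 680 and 602 (-2.27), Ctla4 at 12.6 and 23.8 against 650 and 520 (-5.11) and Havcr2, which encodes TIM-3, at 2.01 and 3.22 against 118 and 122 CPM (-5.56). Tnfrsf9, which encodes the costimulatory receptor 4-1BB induced by antigen, was at 5.03 and 5.79 against 419 and 449 CPM (-6.37, adjusted p = 0.000164). Xcl1 (-5.90) and Cxcr6 (-2.73) were lower, and of 16 cell cycle genes 10 were lower and 0 higher, among them Top2a (-1.90) and Mki67 (-2.17, adjusted p = 0.0492). Gzmb was lower in spleen (59.4 and 68.8 against 118 and 168 CPM, -1.25, adjusted p = 0.0257). Under the gate on thinned counts, with 14 and 18 islet cells, the difference was 0.44 and did not pass. Zeb2 (1.04), Tbx21 (0.21) and Prf1 (0.85) did not pass.

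The difference between cells inside the gate and Cx3cr1- Ccr7- cells was itself compared between organs in 1 model, a comparison added after the data were seen. It passed for 80 of 10023 genes, in 57 of which the difference was more positive in spleen. Gzma differed by 2.15 between the classes in spleen and by 0.17 in islets (difference 1.98, adjusted p = 5.82e-10), Zeb2 by 1.56 and -0.60 (2.16, adjusted p = 1.10e-19) and Lgals3 by 1.07 and -0.20 (1.27, adjusted p = 1.64e-09). The gate held 791 and 589 cells in spleen but only 40 and 48 in islets, and the part of this in the counts of genes was not tested. In islets alone these 3 genes did not pass. Of the 10023 genes, 40 others passed in islets, against 386 genes in spleen. Among the 40, Xcl1 was higher in islet cells inside the gate (1527 and 892 against 426 and 390 CPM, 1.39, adjusted p = 6.56e-38), as were Ccl4 (1.16, adjusted p = 3.89e-17) and Ifng (1.19, adjusted p = 1.46e-07), and Eomes (-1.13, adjusted p = 1.13e-05) and Gzmb (-0.97, adjusted p = 4.97e-06) were lower.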

How the data were processed

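Gene by cell matrices of UMI counts and TCR contig tables of 6 libraries (spleen tetramer-positive, islet tetramer-positive and islet tetramer-negative, 2 rounds each) were used as the authors deposited them: counts made with Cell Ranger on mm10, unnormalized, read at different lengths in the 2 rounds. Islet cells were kept up to 3500 genes. Ambient RNA was not removed and no doublet caller was run. Counts were summed per class and library and tested with edgeR 4.0.16 (TMM, filterByExpr) in R 4.3.3. The block was the library, from which all spleen classes of a round came, and for spleen against islet the round, a pool of mice. Shares have exact (Clopper-Pearson) 95% intervals that cover counting error only. Alternatives included DESeq2 1.42.0, thinning and cells with more than 1 β chain left out. On counts simulated from the first comparison, the test recovered 152 of 195 genes changed by a log2 of 1, with 6 false calls, and 193 of 198 changed by 2. Against islet cells without a block it recovered 0 of 186 and 47 of 182. Every simulated gene had the same fixed dispersion, which was not estimated from the data. These counts hold for that setting only and give no error rate for the genes passed here. Genes named were members of 17 lists and up to 12 per direction with the largest difference among those that passed, with the same direction in both libraries and at least 20 CPM in the higher class, TCR and immunoglobulin segments left out. Cd68, Ighm and Cd79b came from the lists. Members, lists and tests were chosen with earlier results of these data known. Positions are from GENCODE vM21 on GRCm38, which matched 99.6% of gene IDs. Results of some members of the lists are not reported here.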

Additional observations from a re-analysis of the deposited data

Results flagged for a closer look

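For 4 genes the difference between cells in the Cx3cr1+ Ccr7- gate and Cx3cr1- Ccr7- cells passed in both organs with opposite signs, and the difference between organs was itself tested with edgeR in 1 model with the library as a block. Xcl1 differed by -2.10 on the log2 scale in spleen and by 1.39 in islets (spleen minus islet -3.48, adjusted p = 4.92e-67), with 1527 and 892 CPM in islet cells in the gate against 426 and 390 CPM outside it. Gzmb differed by 1.21 and -0.97 (2.18, adjusted p = 4.46e-19), with 118 and 168 CPM in islet cells in the gate against 236 and 289 CPM. Socs1 differed by -0.64 and 0.95 (-1.59, adjusted p = 8.25e-06), and Ctla4 by -0.68 and 0.44 (-1.12, adjusted p = 0.00127). For Ctla4 the rounds were uneven. In Round 1 it was at 650 CPM in the gate against 271 outside it in islets, and at 12.6 against 25.2 in spleen. In Round 2 it was at 520 against 499 CPM in islets and at 23.8 against 27.7 in spleen. The islet side rests on 40 and 48 cells.

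Tetramer-negative islet CD8 T cells, which enter no comparison above, also had cells in the gate, 116 of 6429 (1.80%) in Round 1 and 143 of 8932 (1.60%) in Round 2. Among their Ccr7- cells, 3.55% (2.94–4.24) and 3.94% (3.33–4.63) had a Cx3cr1 UMI, against 0.823% (0.538–1.20) and 0.905% (0.668–1.20) of their Ccr7+ cells.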

How the results depend on the processing

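Of 120 differences of named genes, each followed under up to 21 other settings, 1 changed sign, that of Gzmb against islet cells, which was 0.44 with the gate on counts thinned to 1000 UMIs per cell. That gate held 14 and 18 islet cells, under the minimum of 20 per sum set for the comparison with islets. DESeq2 kept 90 of the 120 past the threshold, and TMM replaced by DESeq2 size factors kept 120 of 120.

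The cells of all spleen classes of a round shared a library, which pairs them, and without that replicate block 0 genes passed in the comparisons with all other cells, Cx3cr1- Ccr7- cells and Cxcr6+ cells. Leaving out 1 sum at a time without the block gave 0–3, 0–0 and 0–12 genes. The first comparison passed 242 genes with DESeq2, 292 with the thinned gate, 666 with at least 2 Cx3cr1 UMIs and 462 with TRAV16N cells only, where the main count was 1002. The second passed 157, 249 and 302 with DESeq2, the thinned gate and TRAV16N cells, and the one with Cxcr6+ cells 118, 48 and 184. With DESeq2, 31.8%, 27.4% and 16.9% of the genes passed were higher in the 3 comparisons, against 47.9%, 46.2% and 35.1%. With the thinned gate these shares were 34.2%, 31.7% and 14.6%. Spleen against islet passed 1747 genes with the round as block, 1086 without a filter, 920 without the upper limit on genes, 5 with the thinned gate, and 59 to 442 without 1 of the sums. There DESeq2 put 32.8% of its genes higher, against 42.2%. The cause of these changes was not tested. Some of these settings also held fewer cells or sums, and the part of this was not tested either.

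The mean share of spleen cells in the gate, 23.3%, was 13.9% with thinned counts, 8.47% with at least 2 UMIs and 27.5% among TRAV16N cells. The difference in TRAV16N use, 14.0 points, was 6.11 against Cx3cr1- Ccr7- cells. That in expanded clones (15.8) was 6.19 against those cells and 3.69 among TRAV16N cells. That in clones found in islets (16.5) was 6.67, 14.3 with the thinned gate and 3.30 among TRAV16N cells. The TRBJ2-4 difference of 3.21 points became -3.12 among TRAV16N cells. The gate share of TRBJ2-7 cells, 24.0%, was 27.0% with clones weighted equally.

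On the log2 scale, some smaller differences moved by over 1.5 times in a single library, as CPM ratios without TMM. Against all other cells these were Id2 (0.50 in Round 1, 0.83 in Round 2), Eomes (0.43, 0.27), Bcl2 (-0.30, -0.46), Tnf (-0.40, -0.28) and Cd79b (-0.54, -0.90), and against Cxcr6+ cells Apobec2 (1.02, 2.02).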
